A study of Mus musculus with 9 samples.

Results

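Heme, the iron-carrying group of hemoglobin, is built from glycine and succinyl-CoA along a chain of enzymes that starts in the mitochondrion, runs through the cytosol and ends in the mitochondrion again. Red cell precursors carry out most of this synthesis, and reticulocytes, the young red cells that enter the blood, still hold the messenger RNA of the pathway. The account below covers 9 genes named for their role in the pathway: 7 enzymes (Alas2, Alad, Uros, Urod, Cpox, Ppox and Fech) and 2 mitochondrial carriers that feed the pathway (Slc25a37 and Slc25a38). These are 9 of the 20926 genes in the expression table, and all 9 passed the filter on low values, as did 12366 genes in all.

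RNA from the blood of male DBA/1 mice was sequenced in 3 groups of 3 libraries. The labels give an age of 7 weeks, which in the paper is the age when the mice were grouped. The age at blood sampling is not given, and arthritis and irradiation came after the grouping. The Ctrl group had no arthritis, the CIA group had collagen-induced arthritis raised by injecting type II collagen with Freund's adjuvant, and the CIA+THz group had the same arthritis and an exposure of the swollen ankle to 0.1 THz radiation for 30 min per day over 14 days. The irradiated mice were held under isoflurane for the exposure, and no arthritis-free irradiated group was among the samples. Libraries are named by group and number, as Ctrl 1 to 3, and nothing in the labels says how the mice of a group were related, so the p-values measure the spread between these libraries. Although the labels describe the samples as blood leukocytes, red cell transcripts were abundant in every library, and the leukocyte marker Ptprc was detected in all of them, at 66.8 to 149.7 rescaled FPKM. Rescaled FPKM are the deposited FPKM (fragments per kilobase of gene, scaled to the size of the library) divided by 1 scaling factor per library, and they are comparable between genes per unit of length. In bulk blood, fewer red cells of a young stage and less RNA per cell cannot be told apart.

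The DNA before the transcription start is shown for 3 of the enzymes, because Uros was the member that passed the test and has 2 annotated starts, and because Alas2 and Cpox hold, like the downstream Uros start, the letters that the erythroid factor GATA1 is known to bind. In the RefSeq promoter table (GRCm38.p6), 7 of the 9 genes had an entry that could be used. The 250 bases before each start were searched on both strands for AGATAA, then for TGATAA, then for AGATAG and then for TGATAG, which are printed in capitals below as they stand on the coding strand (in Cpox, matches on AGATAG and TGATAA overlap by 1 base and form a single run). Alas2, chrX:150547167-150547416, plus strand, holds 1 match that begins 86 bases before the start. Uros, downstream start, chr7:133702501-133702750, minus strand, holds 2 matches at 205 and 68 bases, and Uros, upstream start, chr7:133709296-133709545, minus strand, holds none. Cpox, chr16:58669958-58670207, plus strand, holds 2 matches, at 91 and 86 bases before its start.
Alas2: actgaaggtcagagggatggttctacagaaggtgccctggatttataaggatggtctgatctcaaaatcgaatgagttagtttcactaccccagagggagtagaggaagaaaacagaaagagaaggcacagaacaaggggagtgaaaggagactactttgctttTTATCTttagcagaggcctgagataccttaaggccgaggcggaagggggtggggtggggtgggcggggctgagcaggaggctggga
Uros downstream start: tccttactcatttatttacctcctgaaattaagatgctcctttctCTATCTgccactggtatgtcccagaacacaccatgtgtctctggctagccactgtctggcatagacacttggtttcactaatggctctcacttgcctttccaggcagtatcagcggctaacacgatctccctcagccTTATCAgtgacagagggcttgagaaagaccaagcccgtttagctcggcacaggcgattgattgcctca
Uros upstream start: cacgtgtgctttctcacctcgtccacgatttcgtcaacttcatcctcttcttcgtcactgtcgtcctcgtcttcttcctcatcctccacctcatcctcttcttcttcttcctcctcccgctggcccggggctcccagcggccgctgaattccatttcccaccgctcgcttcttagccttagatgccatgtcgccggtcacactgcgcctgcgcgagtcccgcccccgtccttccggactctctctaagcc
Cpox: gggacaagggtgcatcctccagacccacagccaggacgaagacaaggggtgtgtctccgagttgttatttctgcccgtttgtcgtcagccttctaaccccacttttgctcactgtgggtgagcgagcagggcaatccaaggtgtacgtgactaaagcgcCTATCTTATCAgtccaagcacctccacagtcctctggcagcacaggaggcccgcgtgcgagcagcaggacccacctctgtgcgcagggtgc
No match lay in the windows of Ppox, Alad, Urod and Slc25a38, so 3 of the 9 promoters of these 7 genes held one (33.3%), beside 26.5% of 32851 promoters of the table. The letters CACCC, known from sites of the Klf1 family, were present in 4 of the 9 promoters (44.4%; 3 times before Alas2 and 4 times before Cpox) and in 52.0% of all promoters. A match of letters is a description, and the expression table gives 1 value per gene, so the share of Uros RNA from either start was not measured.

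The 9 genes covered a range of levels that ran from a few FPKM to the highest value in the table. Alas2, the erythroid form of 5-aminolevulinate synthase and the rate-limiting step of the pathway, had a mean of 77591 rescaled FPKM over the 9 libraries. It ranked 1 of the 20926 genes by mean, a rank that covers every gene in the table. Hemoglobin genes were not looked up by name, and any present in the table had a lower mean. Fech, the ferrochelatase that puts iron into protoporphyrin, ranked 17 with a mean of 3339, and Slc25a37, also called mitoferrin 1, which brings iron into the mitochondrion, ranked 25 with a mean of 2320. The remaining 6 genes had means of 46.8 (Urod), 13.2 (Slc25a38), 9.26 (Alad), 7.40 (Ppox), 6.84 (Uros) and 4.28 (Cpox) rescaled FPKM. In this order Alas2 exceeded Fech, Slc25a37 exceeded Urod, and Urod exceeded Slc25a38 in 9 of 9 libraries. Fech exceeded Slc25a37, Slc25a38 exceeded Alad, and Uros exceeded Cpox in 8 of 9 libraries, whereas Alad exceeded Ppox in 6 and Ppox exceeded Uros in 5, so Alad, Ppox and Uros could not be ordered beyond their spread. Alas2, Fech and Slc25a37 together made up 99.8% to 99.9% of the summed level of the 9 genes, and the 9 genes took 12.3% to 17.9% of all FPKM summed in each library.

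The genes lie on 8 chromosomes (GRCm38, GENCODE M21): Alas2 at chrX:150547375-150570638, Alad at chr4:62509169-62519918, Urod at chr4:116989965-116994413, Uros at chr7:133686243-133710072, Cpox at chr16:58670292-58717636, Ppox at chr1:171275990-171281186, Slc25a37 at chr14:69241848-69285112, Slc25a38 at chr9:120110374-120124504, and Fech on chromosome 18. The values cover whole genes, and the library kit did not mark strand, so reads in exons shared with a gene on the opposite strand could not be assigned to either gene. Such sharing touched 791 exonic bases of Ppox (17.5% of its exonic bases, with B4galt3), 311 of Alas2 (12.9%, with Apex2), 381 of Slc25a37 (6.33%, with Gm31748, beside 92 with Gm27223) and 204 of Cpox (3.06%, with Gpr15). B4galt3 was higher than Ppox, at 18.8 to 24.5 FPKM in the group means as deposited, so the values of Ppox are uncertain, whereas Apex2 was at 0.310 to 0.968 FPKM. Uros and its opposite neighbour Bccip overlap in position but share 0 exonic bases.

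**Figure D1:**
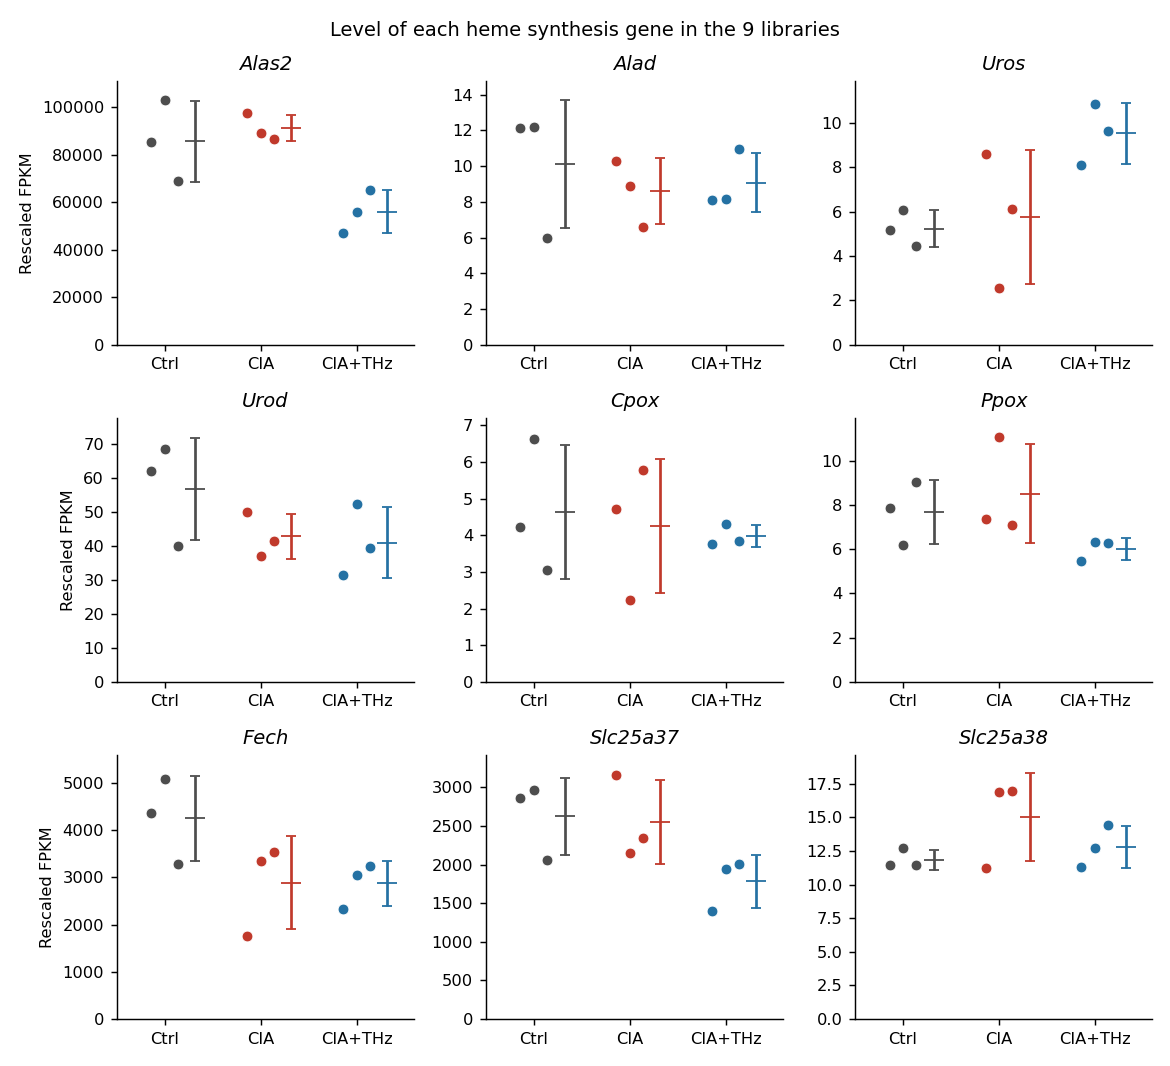
Rescaled FPKM (vertical axes, linear, each from 0) of the 9 heme synthesis genes in the 3 Ctrl, 3 CIA and 3 CIA+THz libraries; points are libraries, in the order of their numbers, and the bars beside them are the mean ± SD of a group. The 3 CIA+THz libraries lie below every other library for Alas2 and Slc25a37, and Uros in CIA+THz lies above every Ctrl library.

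The opening enzyme, Alas2, was measured at 85166, 102970 and 68755 rescaled FPKM in Ctrl 1 to 3, at 97383, 89315 and 86779 in CIA 1 to 3, and at 47174, 55691 and 65083 in CIA+THz 1 to 3. All CIA+THz libraries were thus below all libraries of both other groups, while Ctrl and CIA overlapped. The mean of the Ctrl group was 85630 ± 17112, that of CIA 91159 ± 5537 and that of CIA+THz 55983 ± 8958 (SD, n = 3). In the FPKM as deposited, the CIA+THz libraries also lay below the others, at 58489, 63641 and 71493 against 72632 to 88538.

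For the cytosolic steps, Alad, which condenses aminolevulinate into porphobilinogen, was at 12.1, 12.2 and 5.98 rescaled FPKM in Ctrl, 10.3, 8.90 and 6.60 in CIA, and 8.09, 8.17 and 10.97 in CIA+THz. Its groups overlapped in each comparison, with Ctrl 3 the lowest library of the 9. Uros, which closes the ring to uroporphyrinogen III, was at 5.17, 6.09 and 4.44 in Ctrl, 8.60, 2.56 and 6.11 in CIA, and 8.12, 10.9 and 9.64 in CIA+THz. Here CIA+THz was above Ctrl in every library, and the CIA libraries spread over both, with a coefficient of variation of 52.7% against 15.8% in Ctrl and 14.4% in CIA+THz. Urod, which removes carboxyl groups from uroporphyrinogen, was at 62.1, 68.4 and 39.9 in Ctrl, 49.9, 36.9 and 41.5 in CIA, and 31.4, 52.3 and 39.2 in CIA+THz. Ctrl 1 and Ctrl 2 were above all other libraries for Urod, and Ctrl 3 lay among them.

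The last steps take place in the mitochondrion. Cpox, coproporphyrinogen oxidase, was the lowest member, at 4.23, 6.63 and 3.04 rescaled FPKM in Ctrl, 4.72, 2.23 and 5.79 in CIA, and 3.77, 4.31 and 3.83 in CIA+THz, with groups that overlapped throughout. Ppox, protoporphyrinogen oxidase, was at 7.86, 6.17 and 9.06 in Ctrl, 7.35, 11.1 and 7.10 in CIA, and 5.44, 6.32 and 6.26 in CIA+THz, where all CIA+THz libraries were below all CIA libraries. Fech was at 4375, 5089 and 3296 in Ctrl, 1763, 3357 and 3549 in CIA, and 2325, 3046 and 3249 in CIA+THz. Every CIA+THz library was below every Ctrl library for Fech, and CIA 1 was the lowest of the 9.

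Of the carriers, Slc25a37 was at 2858, 2967 and 2056 rescaled FPKM in Ctrl, 3164, 2145 and 2349 in CIA, and 1392, 1948 and 2004 in CIA+THz. Its CIA+THz libraries were below all others on this scale, but not in the FPKM as deposited, where CIA+THz 2 and 3 (2226 and 2202) were above Ctrl 3 (2171) and CIA 2 (2079). Slc25a38, the glycine carrier that supplies the opening step, was at 11.4, 12.7 and 11.4 in Ctrl, 11.2, 16.9 and 17.0 in CIA, and 11.3, 12.7 and 14.4 in CIA+THz. The groups overlapped, and CIA 2 and CIA 3 were the highest libraries.

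Each pair of groups was compared by limma on log2(rescaled FPKM + 0.1), and a gene passed when its unadjusted p was under 0.05 and its log2 fold change exceeded 0.67 in size, which are the study's thresholds. Across the 3 groups, 0 of the 9 members had a p under 0.05 by limma's moderated F-test, beside 21.3% of all genes tested. The smallest F-test p-values belonged to Slc25a37 (adjusted p = 0.240, limma) and Uros (adjusted p = 0.246, limma), with Benjamini-Hochberg adjustment over all genes tested. Over the same test 5 of 16 related heme genes and 11 of 21 red cell markers had a p under 0.05.

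The comparison of CIA with Ctrl asked how arthritis altered the pathway's transcripts in blood. No member passed the criterion by limma (0 of 9, beside 9.04% of all genes tested; also 0 of 9 at an unadjusted p under 0.05 alone, beside 17.3%), and no member's groups were free of overlap (0 of 9, beside 23.5%). Of the members, 3 had a higher mean log2 level in CIA, beside 49.3% of all genes, and 6 a lower one. The log2 difference of largest size was that of Fech, at -0.60 ± 0.33 (SE; limma, adjusted p = 0.396), with a 95% interval from -1.39 to 0.18. It rested largely on CIA 1, since without that library the difference was -0.28. Urod followed at -0.38 (95% interval -0.90 to 0.14) and Slc25a38 at 0.32 (-0.14 to 0.77), whereas Alas2 differed by 0.11 (-1.68 to 1.90).

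The comparison of CIA+THz with CIA asked what differed between irradiated and unirradiated arthritic mice. Isoflurane is described only for the exposure, so effects of irradiation and of anesthesia cannot be told apart. No member passed the criterion by limma (0 of 9, beside 4.54% of all genes tested; also 0 of 9 at an unadjusted p under 0.05 alone, beside 13.2%). The mean log2 level in CIA+THz was higher for 4 members, beside 52.9% of all genes, and lower for 5. For 3 members, Alas2, Ppox and Slc25a37, all CIA+THz libraries lay below all CIA libraries (3 of 9, beside 19.6% without overlap in either direction and 10.2% without overlap and lower). In the FPKM as deposited, Alas2 alone of these kept that separation, and Uros and Alad in CIA+THz were above all CIA libraries (3 of 9, beside 27.9% of all genes without overlap). Alas2 differed by -0.71 ± 0.48 on the log2 scale (SE; 95% interval -1.86 to 0.43), a level 0.610 times that in CIA (limma, adjusted p = 0.556). The spread of Alas2 within groups was 0.18 on the log2 scale, and limma's estimate drew it up to 0.59, toward the spread fitted for the most abundant genes. Without that trend on the mean, or with the trend fitted only to genes of a mean of at least 1, Alas2 passed the criterion, so its call depended on the model of the spread. Slc25a37 differed by -0.52 ± 0.22 (95% interval -1.04 to 0.00163; limma, adjusted p = 0.380) and Ppox by -0.47 ± 0.21 (adjusted p = 0.394). On the FPKM as deposited these log2 differences were smaller, at -0.44 for Alas2, -0.24 for Slc25a37 and -0.20 for Ppox. Uros had the difference of largest size, 0.87 ± 0.42 (95% interval -0.13 to 1.87; limma, adjusted p = 0.423), while Fech differed by 0.04 (-0.67 to 0.76). CIA 2 was the library with the lowest Uros, and without it the difference was 0.38, whereas without CIA 1 it was 1.24 and passed the criterion. Over all genes 0 had an adjusted p under 0.05 in this comparison, with 1634 at an unadjusted p under 0.05.

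The comparison of CIA+THz with Ctrl gave the only member past the criterion in these 3 comparisons. Uros rose, with means of 9.54 ± 1.38 rescaled FPKM in CIA+THz and 5.23 ± 0.829 in Ctrl (SD, n = 3), a log2 fold change of 0.86 ± 0.19 (SE; 95% interval 0.41 to 1.30) that was higher in 3 of 3 libraries. Its limma p was 0.00237, and its adjusted p was 0.117, so the call was lost after adjustment over all genes tested, of which 0.105% had an adjusted p under 0.05. This was 1 of 9 members, beside 7.88% of all genes past the criterion and 4.64% past it and higher. Uros stayed past the criterion without each of the 6 libraries in turn, with differences from 0.75 to 0.97. The FPKM of CIA+THz were also scaled down relative to Ctrl, and in the FPKM as deposited the difference of Uros was 1.16.

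In the same comparison 2 members, Uros and Slc25a38, had a higher mean log2 level in CIA+THz, beside 53.7% of all genes, and 7 a lower one. With no fold threshold 2 members, Uros and Slc25a37, had an unadjusted p under 0.05, beside 18.1% of all genes, and 4 members had groups without overlap (4 of 9, beside 24%): Uros, which was higher, and Alas2, Fech and Slc25a37, which were lower. In the FPKM as deposited, Fech and Slc25a37 overlapped, and the members without overlap were Alas2, which was lower, and Uros and Slc25a38, which were higher (3 of 9, beside 30.3%). Slc25a37 differed by -0.56 ± 0.22 (limma, adjusted p = 0.250) and Fech by -0.56 ± 0.24 (adjusted p = 0.277), both below the fold threshold in size. Alas2 differed by -0.61 ± 0.58 (95% interval -1.96 to 0.75; limma, adjusted p = 0.616), and Urod by -0.47 ± 0.25 (adjusted p = 0.371). As deposited, the log2 differences were -0.25 for Slc25a37, -0.25 for Fech, -0.30 for Alas2 and -0.16 for Urod. These differences depended on Ctrl 3, whose levels of Alas2, Fech, Slc25a37 and Urod were the lowest of Ctrl. Without it Urod (-0.70), Fech (-0.73) and Slc25a37 (-0.73) passed as well, and the count of members past the criterion went from 1 to 4. Calls rose over all 12366 genes too, from 574 higher and 401 lower with Ctrl 3 to 859 higher and 628 lower without it. The CIA+THz and CIA groups each enter 2 of the 3 comparisons, as does Ctrl, so the comparisons are not independent of each other.

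**Figure D2:**
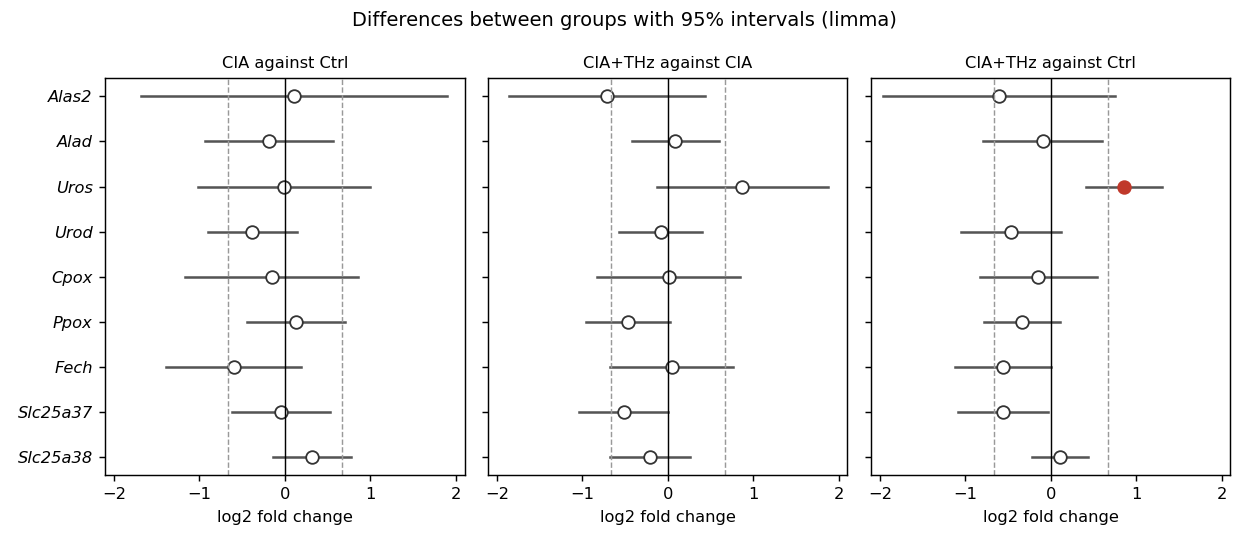
Log2 fold change (horizontal axes) of each member in the 3 comparisons, with its 95% interval from limma; dashed lines mark the fold threshold of 0.67 in both directions, and a filled point is a member past the criterion. Only Uros in CIA+THz against Ctrl, at 0.86, is filled, and the intervals of Alas2 are among the widest.

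Ratios within a library do not depend on the scaling factor. Fech relative to Alas2 stood at 5.14%, 4.94% and 4.79% in the Ctrl libraries, at 1.81%, 3.76% and 4.09% in the CIA libraries, and at 4.93%, 5.47% and 4.99% in the CIA+THz libraries. The CIA libraries were below all libraries of both other groups, with means of 3.22% ± 1.23 in CIA, 4.96% ± 0.172 in Ctrl and 5.13% ± 0.296 in CIA+THz (SD, n = 3). An exact two-sided permutation test gave p = 0.1 for CIA against Ctrl and for CIA+THz against CIA, which is the smallest value that 3 against 3 libraries can give (adjusted p = 0.212 over 36 tests of ratios). CIA 1 stood apart with a Fech to Slc25a37 ratio of 0.557, against 1.51 to 1.72 in the other 8 libraries, so the low Fech of CIA 1 was not shared by the iron carrier. Slc25a37 relative to Alas2 averaged 3.08% ± 0.249 (Ctrl), 2.79% ± 0.429 (CIA) and 3.18% ± 0.286 (CIA+THz), with overlap between all groups. Urod relative to Alas2 was likewise lowest in CIA, at 0.0468% ± 0.00501 against 0.0658% ± 0.00749 in Ctrl and 0.0735% ± 0.0178 in CIA+THz, without overlap (exact permutation p = 0.1 in both comparisons with CIA, n = 3). The ratio of Uros to Urod, the next enzyme in the chain, was 0.0832, 0.0891 and 0.111 in the Ctrl libraries, 0.173, 0.0694 and 0.147 in CIA, and 0.259, 0.208 and 0.246 in CIA+THz. Every CIA+THz library was above every library of the other groups in that ratio (exact permutation p = 0.1 against each, n = 3).

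**Figure D3:**
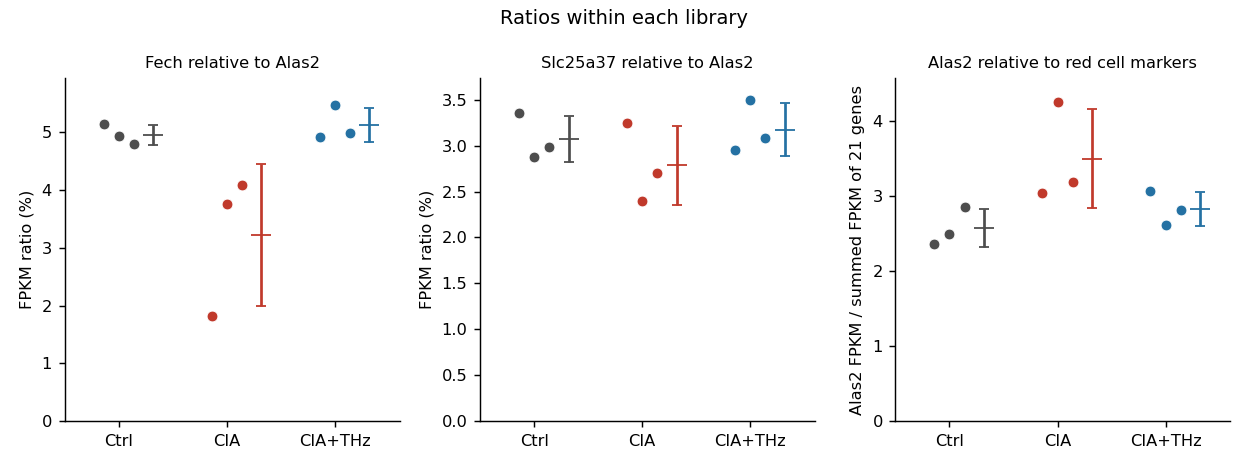
Ratios of FPKM within each library (vertical axes, linear, from 0): Fech and Slc25a37 as percent of Alas2, and Alas2 over the summed FPKM of 21 red cell markers; points are libraries and bars the mean ± SD (n = 3). CIA 1 has the lowest Fech ratio, 1.81%, and the CIA libraries have the 2 highest ratios of Alas2 to red cell markers, 4.25 and 3.19.

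Most red cell markers were lower in the arthritic groups than in Ctrl. The summed level of 21 markers of red cells and reticulocytes, such as Slc4a1, Epb42 and Bpgm, ranged from 24102 to 41296 rescaled FPKM in Ctrl, 21007 to 31979 in CIA and 15423 to 23101 in CIA+THz, with no marker at 0 in all libraries. In CIA+THz against Ctrl all 21 were lower and 15 passed, beside 3.24% of all genes past and lower (median log2 difference -0.74, against 0.04 over all genes tested), while the median of the 9 members was -0.34. In CIA against Ctrl 19 were lower and 6 passed, beside 4.25% past and lower (median -0.66, against -0.04 for the members). For CIA+THz against CIA, 16 markers were lower and 2 passed, beside 1.6% past and lower (median -0.16, against -0.08 for the members). Among white cell markers in CIA+THz against Ctrl, 6 of 12 of neutrophils passed and fell, beside 3.24% of all genes. Of monocytes 5 of 12 and of B cells 3 of 10 passed and rose, beside 4.64% of all genes. Of T cells 0 of 13 passed (limma, also 0 at an unadjusted p under 0.05). In CIA against Ctrl all 12 monocyte markers were higher and 7 passed, beside 9.04% of all genes. All 13 T cell markers were lower there and 0 passed by limma (5 at an unadjusted p under 0.05). Of 12 neutrophil markers 9 were lower and 2 passed, and of 10 B cell markers 7 were higher and 1 passed. For CIA+THz against CIA, all 12 neutrophil markers were lower and 2 passed (10 at an unadjusted p under 0.05). Of 12 monocyte markers 10 were lower and 1 passed (7 at an unadjusted p under 0.05). All 9 platelet markers were lower and 0 passed by limma (6 at an unadjusted p under 0.05). All 13 T cell markers were higher and 1 passed (7 at an unadjusted p under 0.05). Of 10 B cell markers 9 were higher and 0 passed by limma (3 at an unadjusted p under 0.05). The leukocyte marker Ptprc passed there and was higher, by 0.67 (limma, adjusted p = 0.365). It was at 70.8, 66.8 and 140.8 rescaled FPKM in CIA and 138.5, 136.2 and 142.9 in CIA+THz, so the groups overlapped. Over all genes 4.54% passed in CIA+THz against CIA, and 13.2% had an unadjusted p under 0.05. The summed platelet markers ranged from 3626 to 4392 rescaled FPKM in CIA+THz, 4284 to 5485 in CIA and 4559 to 5635 in Ctrl. The part of cell composition in the member values was not tested. Scaled to the red cell markers, which shifts the log2 differences of CIA from Ctrl by 0.51, of CIA+THz from CIA by 0.19 and of CIA+THz from Ctrl by 0.70, 8, 5 and 9 of the 9 members were higher, beside 81.4%, 72.1% and 91.8% of all genes tested. On that scale Uros passed in CIA+THz against CIA (1.06) and against Ctrl (1.55), and Alas2 differed by -0.52 and 0.09. Alas2 over the summed markers averaged 3.50 ± 0.658 in CIA, 2.57 ± 0.255 in Ctrl and 2.83 ± 0.225 in CIA+THz (SD, n = 3), with CIA above Ctrl in every library (exact permutation p = 0.1) and CIA+THz overlapping both (exact permutation p = 0.2 against CIA and 0.3 against Ctrl).

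A list of early erythroid genes, mostly transcription factors and receptors, had 9 genes that were tested. In CIA+THz against Ctrl all 9 were lower and 3 passed, namely Klf1 (-1.30), a factor known to drive Alas2 and globin genes, Epor (-0.82), the erythropoietin receptor, and Trim10 (-0.82), a TRIM family protein of red cell precursors, beside 3.24% of all genes past and lower. Klf1 also fell in CIA against Ctrl (-1.45, limma, adjusted p = 0.12). Epor fell in CIA+THz against CIA (-1.10, limma, adjusted p = 0.363). Each was 1 of 9 past the criterion, beside 4.25% and 1.6% of all genes past and lower. Klf1 was low, with means of 1.96 ± 0.433 rescaled FPKM in Ctrl and 0.648 ± 0.0702 in CIA (SD, n = 3). For Epor the groups overlapped, at 5.03, 13.2 and 6.81 in CIA and 2.57, 5.98 and 2.87 in CIA+THz. Gata1, the erythroid factor named above, differed by -0.38 in CIA+THz against Ctrl (limma, adjusted p = 0.309).

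Other genes that handle heme and its intermediates made up a list of 16, of which 1, 1 and 2 passed in CIA against Ctrl, CIA+THz against CIA and CIA+THz against Ctrl, beside 9.04%, 4.54% and 7.88% of all genes tested. The member of the list past the criterion in CIA against Ctrl was Tmem14c, a mitochondrial inner membrane protein needed for heme synthesis in red cell precursors, which was at 13.3, 8.42 and 12.8 rescaled FPKM in Ctrl and 19.6, 17.2 and 19.1 in CIA and rose by 0.72 on the log2 scale (limma, adjusted p = 0.157). All CIA libraries were above all Ctrl libraries for Tmem14c. Against CIA, the gene that passed in CIA+THz was Abcb6, a porphyrin transporter, which fell by 0.81 (limma, adjusted p = 0.353). Its mean went from 1.92 ± 0.144 to 1.10 ± 0.405 rescaled FPKM (SD, n = 3). In CIA+THz against CIA 12 of the 16 were lower and 3 higher. Of the 16, 5 had an unadjusted p under 0.05 by limma, beside 13.2% of all genes. Hmox1 had the smallest p of the list and fell by 0.66 without overlap, short of the fold threshold (limma, adjusted p = 0.210). Against Ctrl, Slc48a1, a heme transporter, fell by 0.69 (from 519 ± 98.2 to 320 ± 35.1; SD, n = 3) and Blvra, a biliverdin reductase of heme breakdown, rose by 0.87 (from 4.82 ± 2.08 to 8.30 ± 1.31). Alas1, the form of the opening enzyme found in all tissues, was at 10.3 to 23.3 rescaled FPKM, far under Alas2, and differed by -0.19 in CIA+THz against Ctrl (limma, adjusted p = 0.635).

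Iron-sulfur clusters are built in the same mitochondria from the iron that Slc25a37 imports, and Fech itself carries such a cluster. Of 12 assembly genes, CIA against Ctrl had 1 past the criterion (beside 9.04% of all genes), with 4 genes higher and 8 lower. CIA+THz against CIA had 0 by limma (beside 4.54%) and 1 at an unadjusted p under 0.05 (beside 13.2%), with 6 higher and 6 lower. CIA+THz against Ctrl had 4 past the criterion (beside 7.88%), all of which fell. Of all 12 genes, 7 were lower and 5 higher in that comparison, beside 53.7% of all genes higher. Glrx5, a carrier of nascent clusters, fell by 0.89 in CIA and by 0.78 in CIA+THz against Ctrl, from a Ctrl mean of 201 ± 49.9 rescaled FPKM to 111 ± 44.9 in CIA and 116 ± 18.8 in CIA+THz (SD, n = 3). Iscu, the scaffold on which clusters form, fell by 0.86, Hscb, its co-chaperone, by 0.75, and Isca1, a later-acting assembly factor, by 0.72 in CIA+THz against Ctrl. Their adjusted p-values lay from 0.137 to 0.210 (limma). Scaling to red cell markers shifts all log2 differences alike, by 0.51 in CIA against Ctrl and 0.70 in CIA+THz against Ctrl. The part of red cell content in these falls was not tested. Isca1 was among the most abundant of these genes, at 6752, 7704 and 4916 rescaled FPKM in Ctrl and 3250, 3949 and 4493 in CIA+THz. Its groups did not overlap there. Isca2, also among the 12 genes, had the smallest p of the list in both comparisons with Ctrl, and it rose. The rise was 0.58 for arthritis alone (limma, adjusted p = 0.153) and 0.63 for arthritis with irradiation (limma, adjusted p = 0.0992). Both values were short of the fold threshold.

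**Figure D4:**
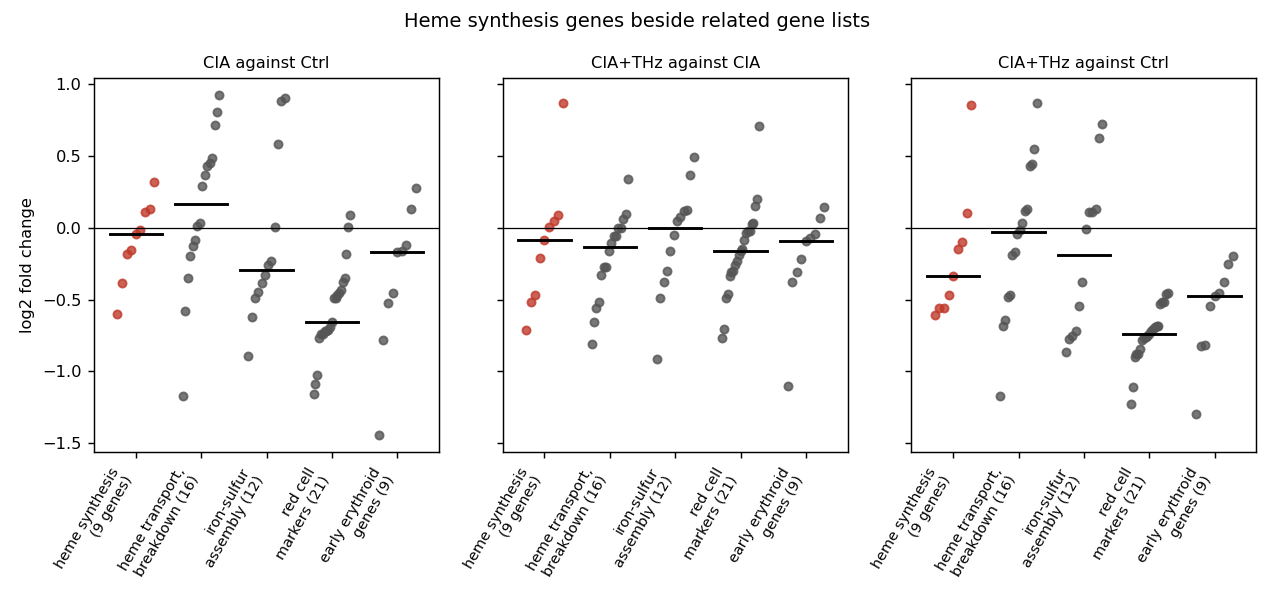
Log2 fold changes (vertical axis) of the 9 heme synthesis genes (red) beside 16 related heme genes, 12 iron-sulfur assembly genes, 21 red cell markers and 9 early erythroid genes in the 3 comparisons; each point is a gene and each black line the median of a list. The red cell markers have medians of -0.66, -0.16 and -0.74, and the heme synthesis genes -0.04, -0.08 and -0.34.

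The 5 genes whose levels followed Alas2 most closely over the 9 libraries, among 9739 with a mean of at least 1, were Tpt1, Ndufa1, Ube2l6, Eif1 and Gng5. Pearson's r of log2 levels was 0.991, 0.971, 0.969, 0.966 and 0.964, given as a description, since the libraries share their groups and scaling factors. Tpt1, a translationally controlled protein, was at 2963, 3620 and 2464 rescaled FPKM in Ctrl, 3666, 3221 and 3423 in CIA and 1689, 1958 and 2312 in CIA+THz. As for Alas2, all CIA+THz libraries were below all others for Tpt1. Ube2l6, a ubiquitin-conjugating enzyme that is also among the red cell markers, was at 8213, 8723 and 5963 in Ctrl, 8795, 6592 and 7421 in CIA and 3824, 4671 and 5558 in CIA+THz, and its CIA+THz libraries were likewise below all others.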

How the data were processed

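The libraries were made from blood RNA with the TruSeq RNA Sample Preparation Kit V2 and sequenced as paired reads on an Illumina HiSeq instrument. The submitters' processing notes name bcl2fastq 2.0, HISAT2, StringTie and DESeq2 and build mm10, and the annotation is not given in the sources used here. The authors deposited FPKM for 20926 genes in 9 libraries, with no counts, so absolute depth is unknown. From steps in the low values, CIA+THz libraries were estimated at 1.35 to 1.87 times the depth of Ctrl 1, and the other libraries at 1 to 1.28 times.

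FPKM were divided by a median-of-ratios factor per library (0.847 to 1.24, over 10312 genes above 0 in all), which lowered CIA+THz against CIA by 0.28 and against Ctrl by 0.31 on the log2 scale. The 12366 genes whose mean over all libraries reached 0.1 rescaled FPKM were tested on log2(rescaled FPKM + 0.1) with limma 3.58.1 in R 4.3.3 (eBayes with a trend), each pair on its own 6 libraries, with Benjamini-Hochberg adjustment over all genes tested. The fold changes are on that scale, which understates those of low genes. Ratios were compared by exact two-sided permutation tests, and the code was tested on simulated data. Members and gene lists were chosen with earlier results of these data known. The members were named in full, partner and iron-sulfur genes where they passed, and the 5 genes most like Alas2 by rank. Alas1, Gata1 and the early erythroid genes were named in addition, as known parts of the pathway or its regulation. Hmox1 and Isca2 were also named, for having the smallest p of their list in a comparison. Positions are from GENCODE M21 and promoters from RefSeq. Alternatives were the scaling, pseudocount, filter, spread model, libraries in the fit, replicate block, criterion, and leaving out each library. Groups of 3 were too small for an outlier test.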

Additional observations from a re-analysis of the deposited data

How the results depend on the processing

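The call of Uros in CIA+THz against Ctrl was kept under every alternative except the adjusted p, which left 0 members. Alas2 kept a negative difference in CIA+THz against CIA under all of them. With FPKM as deposited, 1199 genes passed in CIA+THz against CIA (561 in the main analysis, of which 64.7% were higher against 94.5% here). In CIA+THz against Ctrl 1720 passed (975 in the main analysis, with 58.9% higher there and 93.0% here). On that scale 1 member passed in CIA+THz against CIA (Uros) and 1 across the groups. In CIA+THz against Ctrl 4 of the 9 members were higher, beside 77.4% of all genes tested. Alad (0.21) and Cpox (0.15) against Ctrl, Slc25a38 (0.066) and Urod (0.19) in CIA+THz against CIA, and Uros (0.015) in CIA against Ctrl changed sign. Scaled to red cell markers, 1746 genes passed in CIA against Ctrl (1118) and 4004 in CIA+THz against Ctrl, with 93.9% and 99.1% higher. Members past the criterion were then 1 in CIA+THz against CIA (Uros), 2 in CIA+THz against Ctrl (Uros and Slc25a38) and 1 across the groups. In the comparisons of CIA and CIA+THz with Ctrl, 8 and 9 members were higher, beside 81.4% and 91.8% of all genes tested. Under that scaling Alad (0.32), Cpox (0.34), Slc25a37 (0.47), Urod (0.13) and Uros (0.48) changed sign in CIA against Ctrl, Urod (0.11) in CIA+THz against CIA, and Alad (0.60), Alas2 (0.095), Cpox (0.54), Fech (0.14), Ppox (0.35), Slc25a37 (0.14) and Urod (0.23) in CIA+THz against Ctrl. Scaled to ubiquitous genes, Urod was 0.00059 in CIA+THz against CIA and 2 members passed across the groups, and the share of higher calls was 40.8% in CIA against Ctrl (53.0%) and 79.1% in CIA+THz against CIA. A pseudocount of 1 left 283 genes past in CIA+THz against CIA, put 2 members past across the groups, and turned Cpox (-0.012) in that comparison and Uros (0.011) in CIA against Ctrl.

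Adjusted p-values left 19, 0 and 13 genes in the 3 pairs and 313 across the groups (2629 in the main analysis). Without a minimum fold 2140, 1634 and 2236 genes passed, and 2 members in CIA+THz against Ctrl. In CIA+THz against CIA, 1 member passed with all 9 libraries in the fit (Uros), 1 with a mean of at least 1 and 1 with no trend (Alas2 in both), and across the groups 2 and 1 members passed under the last pair of settings. The replicate numbers did not pair the samples (correlations of same-numbered libraries from -0.05 to 0.03), and with the replicate block 1073, 506 and 967 genes passed, with 0, 0 and 1 members, so no member's call changed.

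Leaving out each library in turn gave 0 to 2 members past across the groups, 0 to 1 in CIA+THz against CIA, 1 to 4 in CIA+THz against Ctrl, 724 to 1487 genes past in the last, and 2 to 5, 2 to 5 and 2 to 4 members higher in the 3 pairs. Differences that changed sign ranged in CIA against Ctrl from -0.041 to 0.25 (Alas2), -0.43 to 0.24 (Cpox), -0.073 to 0.26 (Ppox), -0.21 to 0.072 (Slc25a37) and -0.38 to 0.47 (Uros), in CIA+THz against CIA from -0.088 to 0.23 (Alad), -0.39 to 0.28 (Cpox), -0.28 to 0.23 (Fech) and -0.27 to 0.093 (Urod), and in CIA+THz against Ctrl from -0.43 to 0.075 (Alad) and -0.41 to 0.14 (Cpox). The causes of these changes were not tested. With 3 libraries a group and no counts, members at a few FPKM could not be given counting intervals.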
